A study of Mus musculus with 12 samples.

Results

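The genes described are 9 genes of the cytotoxic granule and of effector chemokine secretion, taken by name from the 54532 entries of the count table. They are Prf1, Gzmb, Gzmk, Gzma and Nkg7, which belong to the granule, and Ccl5, Xcl1, Ccl3 and Ccl4, which encode secreted chemokines. Each of the 9 names stood on 1 entry. RNA had been sequenced from 12 libraries of CD4 T cells, 3 from each of 4 sorted subsets. The cells came from mixed spleen and lymph node of untreated wild-type C57BL/6 mice that carried a Foxp3-GFP reporter and an unselected, polyclonal T cell repertoire. Naive cells were sorted as CD44low. Effector cells (Teff) were CD44high and FOXP3-negative with low CD73 and FR4. Anergic cells were CD44high and FOXP3-negative as well, and were gated on high FR4, high CD73 and NRP1. Regulatory cells (Treg) were FOXP3+ and CD25+. The labels do not say whether the 3 libraries of a subset came from separate animals, so each p-value reflects the spread among these libraries alone, which may be technical.

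Killer lymphocytes store perforin and granzymes in secretory granules. Perforin, the product of Prf1, opens pores in the target membrane, and granzymes, which are serine proteases, enter through them and start cell death. NKG7 is a membrane protein of these granules that takes part in their release. The same cells often secrete CCL3, CCL4 and CCL5, which attract other leukocytes, and XCL1, which attracts cells that carry XCR1. These genes are best known from CD8 T cells and natural killer (NK) cells. CD4 T cells of the Th1 type, Treg and cytotoxic CD4 cells can use parts of the set.

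Levels are CPM, depth-normalised counts, scaled by the TMM factors of edgeR. The libraries held 6909035 to 9527897 counts. A gene was tested when it passed edgeR's filter on low counts, which 13393 genes did. Differences were tested with edgeR's quasi-likelihood test over all 12 libraries, and a gene is called higher or lower at a Benjamini-Hochberg adjusted p under 0.05. Prf1, Gzmb, Gzmk, Nkg7, Ccl5 and Xcl1 were tested, while Gzma, Ccl3 and Ccl4 had too few counts. In Anergic library 3, 9 abundant entries, the mitochondrial ribosomal RNAs among them, took 42.2% of the counts, against 31.1 to 36.5% in the other libraries. Foxp3 stood at 531 to 562 CPM in Treg, 15.03 to 20.4 in Anergic, 1.21 to 1.61 in Naive and 0.372 to 1.02 in Teff, and Cd44 at 30.9 to 40.4 in Naive and 287 to 304 in Teff. In bulk RNA, fewer cells that express a gene and less RNA of it per cell cannot be told apart.

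The members lie on 6 chromosomes of the mouse genome (GRCm38, GENCODE M21 annotation). Gzma (chr13:113093825-113100981) and Gzmk (chr13:113171608-113225908) are neighbours on the minus strand. Ccl5 (chr11:83525778-83530518) and Ccl3 (chr11:83647844-83649355) on the minus strand, and Ccl4 (chr11:83662584-83664683) on the plus strand, belong to 1 chemokine cluster. Gzmb (chr14:56258838-56262260) and Xcl1 (chr1:164931644-164935527) are on the minus strand. Prf1 (chr10:61297833-61304680) and Nkg7 (chr7:43437073-43438249) are on the plus strand. No annotated gene shares exon sequence with 8 of the 9. Exons of Xcl1 overlap an opposite-strand transcript, Gm20743, over 98 bases or 18.7% of the exon length, and the strand setting of the counting is not given. Gm20743 had 5 counts in Teff and 3 in the other subsets together. Gzmb is 77.3% identical to Gzmc over 844 bases of transcript, and no other gene matched a transcript of Gzmb, Gzmk, Gzma, Prf1, Nkg7, Ccl5, Ccl3 or Ccl4 at 95% identity over 50 bases.

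Upstream sequence is shown for 5 of the tested members because their levels fell into different patterns over the same 4 subsets. Among these 5, Nkg7 and Xcl1 had a similar pattern. The windows are the 250 bases before the RefSeq start site, from the RefSeq promoter table of GRCm38.p6, written 5′ to 3′ on the strand of the gene. That table matched 7 of the 9 members, and Ccl5 and Ccl4 were not matched. Capitals mark matches, on either strand, to 4 short motifs: AP-1 (TGANTCA, read by AP-1 factors and by BATF with its JUN partners), RUNX (TGTGGT), T-box (AGGTGTG) and NFAT (GGAAAA). The motifs do not overlap in these windows, and TGANTCA reads the same on both strands.
Gzmb, chr14:56262335-56262584, minus strand: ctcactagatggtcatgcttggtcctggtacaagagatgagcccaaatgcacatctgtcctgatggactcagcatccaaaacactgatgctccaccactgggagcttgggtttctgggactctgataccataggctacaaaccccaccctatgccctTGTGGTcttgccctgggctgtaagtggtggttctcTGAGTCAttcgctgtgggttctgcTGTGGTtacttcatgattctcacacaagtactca
Gzmk, chr13:113180966-113181215, minus strand: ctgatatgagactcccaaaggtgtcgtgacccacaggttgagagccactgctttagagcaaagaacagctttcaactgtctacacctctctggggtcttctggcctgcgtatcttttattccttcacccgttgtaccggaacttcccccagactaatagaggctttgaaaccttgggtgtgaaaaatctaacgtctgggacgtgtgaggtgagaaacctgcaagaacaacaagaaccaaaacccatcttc
Prf1, chr10:61297586-61297835, plus strand: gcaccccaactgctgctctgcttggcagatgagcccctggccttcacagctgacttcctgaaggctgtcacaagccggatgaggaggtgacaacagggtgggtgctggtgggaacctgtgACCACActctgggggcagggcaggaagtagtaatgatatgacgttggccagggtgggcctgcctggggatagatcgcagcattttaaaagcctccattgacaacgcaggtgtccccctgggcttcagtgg
Nkg7, chr7:43436888-43437137, plus strand: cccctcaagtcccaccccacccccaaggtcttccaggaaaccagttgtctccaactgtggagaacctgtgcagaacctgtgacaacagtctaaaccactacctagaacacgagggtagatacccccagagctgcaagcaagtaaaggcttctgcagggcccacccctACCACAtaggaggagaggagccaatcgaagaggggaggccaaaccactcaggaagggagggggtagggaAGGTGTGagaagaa
Xcl1, chr1:164935523-164935772, minus strand: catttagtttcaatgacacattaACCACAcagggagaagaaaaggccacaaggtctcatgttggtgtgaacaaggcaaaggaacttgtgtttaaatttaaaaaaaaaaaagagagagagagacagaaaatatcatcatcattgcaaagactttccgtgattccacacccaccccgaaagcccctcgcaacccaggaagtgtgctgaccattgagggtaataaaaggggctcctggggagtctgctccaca
The RUNX letters stood in 6 of the 7 windows matched (Gzmb, Gzma, Prf1, Nkg7, Xcl1 and Ccl3) and in 14% of 32851 promoter windows of the same length. In the Gzmb window they occur at positions -93 and -34 before the start, on either side of an AP-1 match at -58. The AP-1 letters were found in the Gzmb window alone among the 7, and in 6.75% of all windows. The T-box letters were found in the Nkg7 window, 14 bases before the start, and in 5.10% of all windows. The NFAT letters were found in the Gzma and Ccl3 windows and in 20.4% of all. None of the 4 motifs was found in the Gzmk window. A match is a description of letters in the window and not a binding site. The RefSeq start lies 74 bases from the nearest GENCODE start for Gzmb and 44 for Gzmk, and 3 to 8 for Prf1, Nkg7 and Xcl1.

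The plot of member levels by library shows 4 patterns. Ccl5, Nkg7 and Xcl1 were far higher in Teff than elsewhere. Gzmb was high in Teff and Treg, Gzmk in Teff and Anergic cells, and Prf1 was highest in Naive cells. Gzma, Ccl3 and Ccl4 were near the detection limit in every subset.

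**Figure D1:**
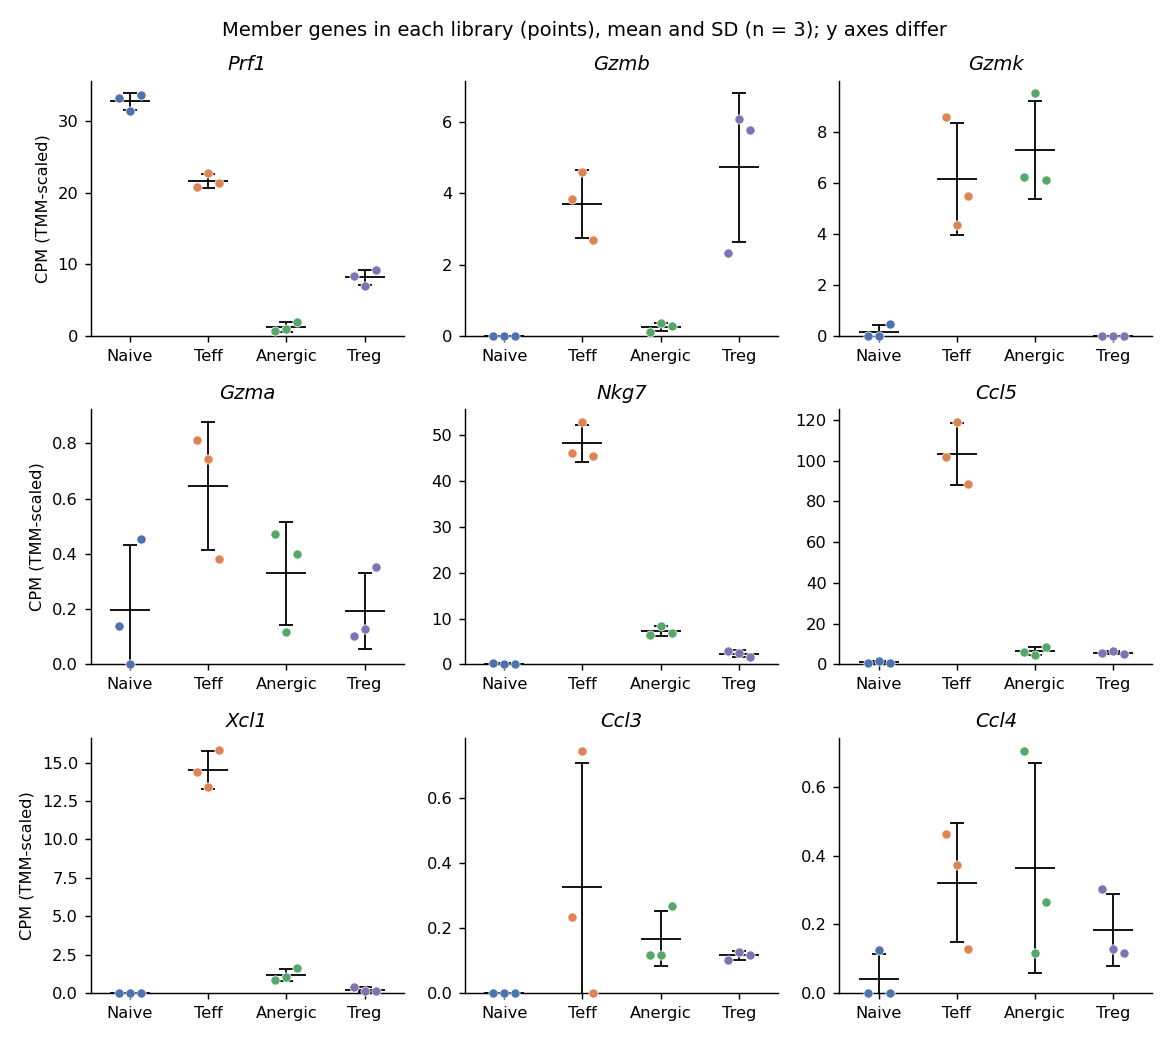
TMM-scaled CPM of the 9 member genes (1 panel each, with its own y axis from 0) in the 12 libraries, 3 points per subset, with horizontal lines for the mean and bars for the SD. Ccl5, Nkg7 and Xcl1 peak in Teff, Prf1 runs from 32.8 CPM in Naive to 1.21 in Anergic cells, and Gzmb and Gzmk are each high in 2 subsets.

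Of the granule genes, Prf1 encodes the pore-forming protein itself. It stood at 33.2, 31.5 and 33.7 CPM in the 3 Naive libraries and at 20.9, 22.8 and 21.4 in Teff. It stood at 8.39, 6.97 and 9.17 CPM in Treg and at 0.706, 0.939 and 2.00 in Anergic libraries, which held 6, 8 and 15 counts. The 4 subsets did not overlap, and Anergic cells were lowest. The order was Naive, Teff, Treg, Anergic, and each neighbour in it differed from the next. Prf1 in Teff was 1.51-fold lower than Naive (log2 fold change -0.60 ± 0.130 SE, adjusted p = 0.000785), and Treg 2.64-fold lower than Teff (log2 fold change -1.40 ± 0.149 SE, adjusted p = 5.79e-08). Anergic cells were 6.85-fold lower than Treg (log2 fold change -2.78 ± 0.245 SE, adjusted p = 2.85e-09), 18.1-fold lower than Teff (log2 fold change -4.18 ± 0.213 SE, adjusted p = 1.76e-13) and 27.3-fold lower than Naive (log2 fold change -4.77 ± 0.205 SE, adjusted p = 2.29e-15). These 5 calls held in every alternative analysis in which Prf1 was tested. Treg was 3.99-fold lower than Naive.

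Prf1 was the sole tested member with its highest level in Naive cells, which had 0 to 22 counts in all for each of the other 8 members. The counts are per gene, and where along Prf1 the Naive reads lie, on its coding exons or elsewhere, was not analysed here. The marker genes of CD8 T cells summed to 12.6 to 17.1 CPM in Naive, 9.88 to 11.8 in Treg, 3.71 to 6.25 in Teff and 5.06 to 5.87 in Anergic libraries. Nearly all of this was Cd8b1, while Cd8a had 5 counts in the 3 Naive libraries together. Of 10 NK cell markers, 5 had 0 counts in Naive, among them Klra8 and Klra4, which had 0 in every subset. The list summed to 0.744 CPM at most in Naive. Markers of NKT and other innate-like T cells summed to 8.14 to 8.20 CPM there, mostly Klrd1 with 92 counts and Trdc with 74. The part of any of these cells in the Naive Prf1 level was not tested. The genes closest to Prf1 in pattern were Tent5a and Oas2, at a root mean square difference of 0.689 and 0.698 in log2 CPM, each gene centred on its own mean over the 12 libraries. This search covered 7819 genes with at least 10 CPM in a subset. Tent5a stood at 56.2 ± 4.27 CPM in Naive and 6.45 ± 2.18 in Anergic cells (SD, n = 3), and Oas2, an interferon-induced gene, at 27.3 ± 6.41 and 2.09 ± 0.153.

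Granzyme B, encoded by Gzmb, cleaves after aspartate and activates caspases. It stood at 3.83, 4.59 and 2.68 CPM in Teff (33, 37 and 21 counts) and at 2.32, 6.08 and 5.76 CPM in Treg (23, 48 and 49 counts). Anergic libraries held 1, 3 and 2 counts, or 0.118, 0.352 and 0.266 CPM, and the 3 Naive libraries held 0, which allows a level of up to 0.137 CPM. Teff and Treg overlapped, and no Anergic library reached them. Gzmb was 14.3-fold lower in Anergic cells than in Teff (log2 fold change -3.84 ± 0.555 SE, adjusted p = 1.25e-05) and 18-fold lower than in Treg (log2 fold change -4.17 ± 0.538 SE, adjusted p = 2.29e-06). Treg against Teff was not called (adjusted p = 0.528), with a log2 fold change of 0.33 ± 0.347 SE. Against the floor of 3 counts over the Naive libraries, Gzmb was at least 27.1-fold higher in Teff and at least 33.3-fold higher in Treg. The Anergic level rested on 6 counts. It was called above Naive at an adjusted p of 0.0480, and the call was lost without Naive library 1, 2 or 3 or Anergic library 2 or 3, with adjusted p from 0.0796 to 0.116.

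Mast cells and basophils also make granzyme B, and their 5 markers summed to 0.760 CPM at most in any library. That highest sum was in Treg library 2, which also had the highest Gzmb level. In the 3 Treg libraries together Ms4a2 had 5 counts, Fcer1a 2 and Mcpt8 1, while Cpa3 and Mcpt4 were at 0. Their part in the Gzmb level was not tested. The genes closest to Gzmb in pattern were Il1rl1, which encodes the IL-33 receptor ST2, and Acsbg1, at a root mean square difference of 0.804 and 0.943. Il1rl1 stood at 0.0506 ± 0.0876 CPM in Naive, 3.44 ± 0.406 in Teff, 1.19 ± 0.263 in Anergic cells and 11.04 ± 1.96 in Treg (SD, n = 3).

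Granzyme K, encoded by Gzmk, is a trypsin-like granzyme. Gzmk stood at 8.58, 4.34 and 5.48 CPM in Teff (74, 35 and 43 counts) and at 6.23, 9.51 and 6.12 in Anergic libraries (53, 81 and 46 counts). Treg libraries held 0 counts, which allows up to 0.114 CPM, and Naive libraries held 0, 0 and 3. Teff and Anergic overlapped, and neither overlapped Naive or Treg. Anergic against Teff was not called (adjusted p = 0.622), with a log2 fold change of 0.25 ± 0.311 SE. Gzmk was at least 54.3-fold higher in Teff than in Treg (edgeR adjusted p = 3.64e-08) and at least 64.3-fold higher in Anergic cells than in Treg (adjusted p = 1.58e-08). Against the 3 Naive counts it was 45.2-fold (95% counting interval 15.2 to 222) higher in Teff and 53.6-fold (18.1 to 262) higher in Anergic cells. It was the sole tested member not called lower in Anergic cells than in Teff.

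The closest patterns to Gzmk were those of Cpne7 and Tnfsf14, at a root mean square difference of 0.740 and 0.835. Cpne7 stood at 11.1 ± 3.38 CPM in Anergic, 7.46 ± 1.17 in Teff and 0.191 ± 0.0686 in Treg, with 0 counts in Naive. Tnfsf14, which encodes the TNF family ligand LIGHT, stood at 47.7 ± 4.33 CPM in Teff, 33.9 ± 3.39 in Anergic, 2.45 ± 0.763 in Treg and 0.749 ± 0.288 in Naive cells (SD, n = 3).

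Gzma, which encodes the trypsin-like granzyme A, had 7, 6 and 3 counts in the Teff libraries, 4, 1 and 3 in Anergic, 1, 1 and 3 in Treg and 1, 0 and 3 in Naive. It was therefore at 0.646 ± 0.231 CPM in Teff and at 0.194 to 0.329 CPM on average in the other subsets. With no filter on low counts it was called in none of the 6 comparisons by edgeR (adjusted p 0.265 to 1.0), and differences in Gzma were not detectable at this depth. Of 7 other granzyme genes, Gzmm alone was tested. It stood at 1.72 to 2.19 CPM on average in the 4 subsets and passed no test, with 1.28-fold between Anergic and Teff (log2 fold change -0.36 ± 0.355 SE, adjusted p = 0.517). Gzmd, Gzme, Gzmg and Gzmn had 0 counts in all 12 libraries, Gzmf had 1 and Gzmc 5 to 19 per subset.

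The plot of granzyme levels and shares sets the make-up of granzyme RNA side by side. Levels were divided by exon length here so that genes could be set side by side. Of the CPM per kb of Gzma, Gzmb, Gzmc, Gzmk and Gzmm, Gzmk made up 72.9 ± 5.89% in Anergic libraries, 45.4 ± 9.52% in Teff, 0% in Treg and 4.27 ± 7.40% in Naive (SD, n = 3). Gzmb made up 57.8 ± 7.49% in Treg, 27.2 ± 8.01% in Teff and 2.33 ± 0.872% in Anergic libraries. Gzmm made up most of the low Naive level, at 59.8 ± 24.9%, where the 5 genes had 57 counts in the 3 libraries together. The summed level was 9.55 ± 1.52 CPM per kb in Teff, 7.14 ± 1.33 in Anergic, 5.55 ± 2.06 in Treg and 2.08 ± 0.469 in Naive cells. These shares describe the libraries and were not tested.

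**Figure D2:**
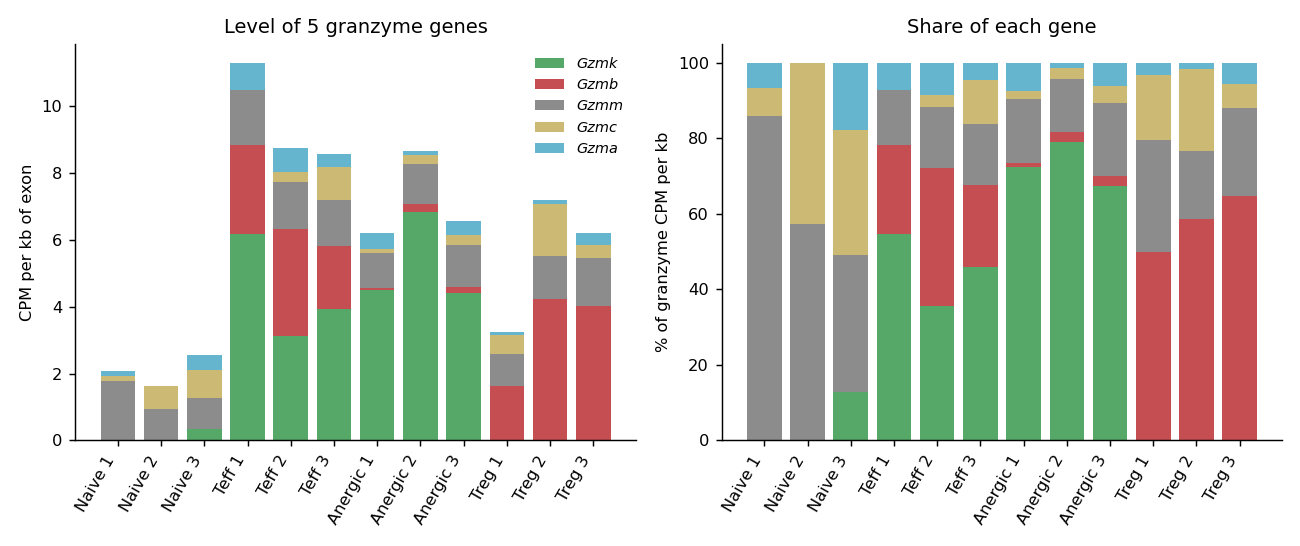
Stacked bars for the 12 libraries. The left panel gives the level of 5 granzyme genes in CPM per kb of exon, and the right panel the share of each gene in that sum in percent. Gzmk takes 72.9% of the sum on average in Anergic libraries and Gzmb 57.8% in Treg libraries, where Gzmk is at 0.

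Nkg7 encodes the granule membrane protein. It stood at 46.0, 52.9 and 45.5 CPM in Teff, 6.47, 8.45 and 6.79 in Anergic and 3.03, 2.41 and 1.65 in Treg libraries. Naive libraries held 2, 1 and 0 counts. The 4 subsets did not overlap, and the order was Teff, Anergic, Treg, Naive. Nkg7 was 6.63-fold lower in Anergic cells than in Teff (log2 fold change -2.73 ± 0.151 SE, adjusted p = 8.36e-13) and 20.03-fold lower in Treg than in Teff (log2 fold change -4.32 ± 0.179 SE, adjusted p = 2.34e-15). Anergic cells were 3.02-fold above Treg (log2 fold change 1.59 ± 0.222 SE, adjusted p = 4.04e-06). Against the 3 Naive counts, Teff was 352-fold (95% counting interval 120.0 to 1707) and Treg 17.5-fold (5.72 to 87.1) higher. The closest patterns were those of Il18rap, a chain of the IL-18 receptor, at a root mean square difference of 0.535, and Asb2 at 0.654.

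Among the chemokines, Ccl5 had the highest level of the 9 genes in Teff, though not in the other subsets. It stood at 102, 119 and 88.7 CPM in Teff, against 6.23, 4.70 and 8.52 in Anergic, 5.66, 6.59 and 4.94 in Treg and 0.551, 1.49 and 0.911 in Naive libraries. Teff stood apart, Anergic and Treg overlapped, and Naive libraries were lowest. Ccl5 was 16.1-fold lower in Anergic cells than in Teff (log2 fold change -4.01 ± 0.153 SE, adjusted p = 1.1e-15) and 18.1-fold lower in Treg than in Teff (log2 fold change -4.17 ± 0.154 SE, adjusted p = 3.08e-16). Anergic against Treg was not called (adjusted p = 0.608), with a log2 fold change of 0.17 ± 0.215 SE. Both were above Naive cells, by 6.32-fold in Anergic cells (log2 fold change 2.66 ± 0.328 SE, adjusted p = 3.4e-07) and by 5.62-fold in Treg (log2 fold change 2.49 ± 0.332 SE, adjusted p = 1.79e-06). Teff were 101.5-fold above Naive (log2 fold change 6.67 ± 0.214 SE, adjusted p = 2.12e-17). The closest patterns were those of Il18rap, at a root mean square difference of 0.473, and of the matrix metalloproteinase gene Mmp9, at 0.571.

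Xcl1 encodes a chemokine that retains a single pair of the cysteines conserved in other chemokines. It stood at 14.4, 13.4 and 15.8 CPM in Teff (124, 108 and 124 counts) and at 0.823, 1.06 and 1.60 in Anergic libraries (7, 9 and 12 counts). Treg libraries held 4, 1 and 1 counts and Naive libraries 0, which allows up to 0.137 CPM. No subset overlapped another. Xcl1 was 12.5-fold lower in Anergic cells than in Teff (log2 fold change -3.65 ± 0.292 SE, adjusted p = 1.91e-09) and 59.9-fold lower in Treg than in Teff (log2 fold change -5.90 ± 0.376 SE, adjusted p = 3.12e-11). Anergic cells were 4.78-fold above Treg (log2 fold change 2.26 ± 0.549 SE, adjusted p = 0.00275). Teff were at least 106-fold and Anergic cells at least 8.34-fold above Naive. Treg were called above Naive on 6 counts (adjusted p = 0.0325), a call lost without Treg library 1 (adjusted p = 0.165), without Naive library 1, 2 or 3 (0.0691 to 0.0825) and with DESeq2 (0.0592), limma voom (0.0799) or no filter (0.0501). The closest patterns were those of Slc27a6 and Pak6, at a root mean square difference of 0.482 and 0.500.

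Ccl3 and Ccl4, which encode MIP-1 alpha and MIP-1 beta, were barely detected although they lie in the same cluster as Ccl5. Ccl3 had 2, 6 and 0 counts in Teff, 1, 1 and 2 in Anergic, 1, 1 and 1 in Treg and 0 in Naive libraries. Ccl4 had 4, 3 and 1 counts in Teff, 6, 1 and 2 in Anergic, 3, 1 and 1 in Treg and 0, 1 and 0 in Naive libraries. With no filter neither was called in any comparison by edgeR (adjusted p 0.0860 to 0.935 for Ccl3 and 0.179 to 1.0 for Ccl4). Per kb of exon in Teff, Ccl5 stood at 108 ± 15.9 CPM, Nkg7 at 52.7 ± 4.52, Xcl1 at 27.8 ± 2.33, Prf1 at 8.40 ± 0.385, Gzmk at 4.42 ± 1.58 and Gzmb at 2.57 ± 0.669. Gzma, Ccl4 and Ccl3 stood at 0.642 ± 0.229, 0.486 ± 0.263 and 0.424 ± 0.497 on the same scale (SD, n = 3). In Naive cells Prf1 was at 12.7 ± 0.453 CPM per kb and none of the others exceeded 1.02.

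Of the 6 tested members, 5 were called lower in Anergic cells than in Teff and none higher. Of the 13393 tested genes, 26.6% were called there, 12.7% lower and 13.9% higher. In Treg against Teff, 5 were called lower, where 29.1% of tested genes were called and 14.1% were lower. In Teff against Naive, where 34.9% of tested genes were called, 5 were higher, as 19.2% of tested genes were, and 1, Prf1, was lower, as 15.7% were. In Anergic against Naive, where 46.2% were called, 5 were higher, as 25.0% of tested genes were, and Prf1 lower, as 21.3% were. In Treg against Naive, where 32.8% of tested genes were called, 4 members were higher and Prf1 was lower. In Anergic against Treg, where 31.0% of tested genes were called, Gzmk, Nkg7 and Xcl1 were higher, as 15.6% of tested genes were, and Gzmb and Prf1 lower, as 15.3% were. The median log2 fold change of the 6 tested members was -3.74 in Anergic against Teff, beside 0.00095 over all tested genes. Gzmb, Gzmk, Nkg7, Ccl5 and Xcl1 passed the filter through the subsets where they are high, and Prf1 through subsets other than Anergic. These counts and medians therefore describe the list and are no test of it. The comparisons also share libraries and are not independent. The plot of fold changes sets them side by side.

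**Figure D3:**
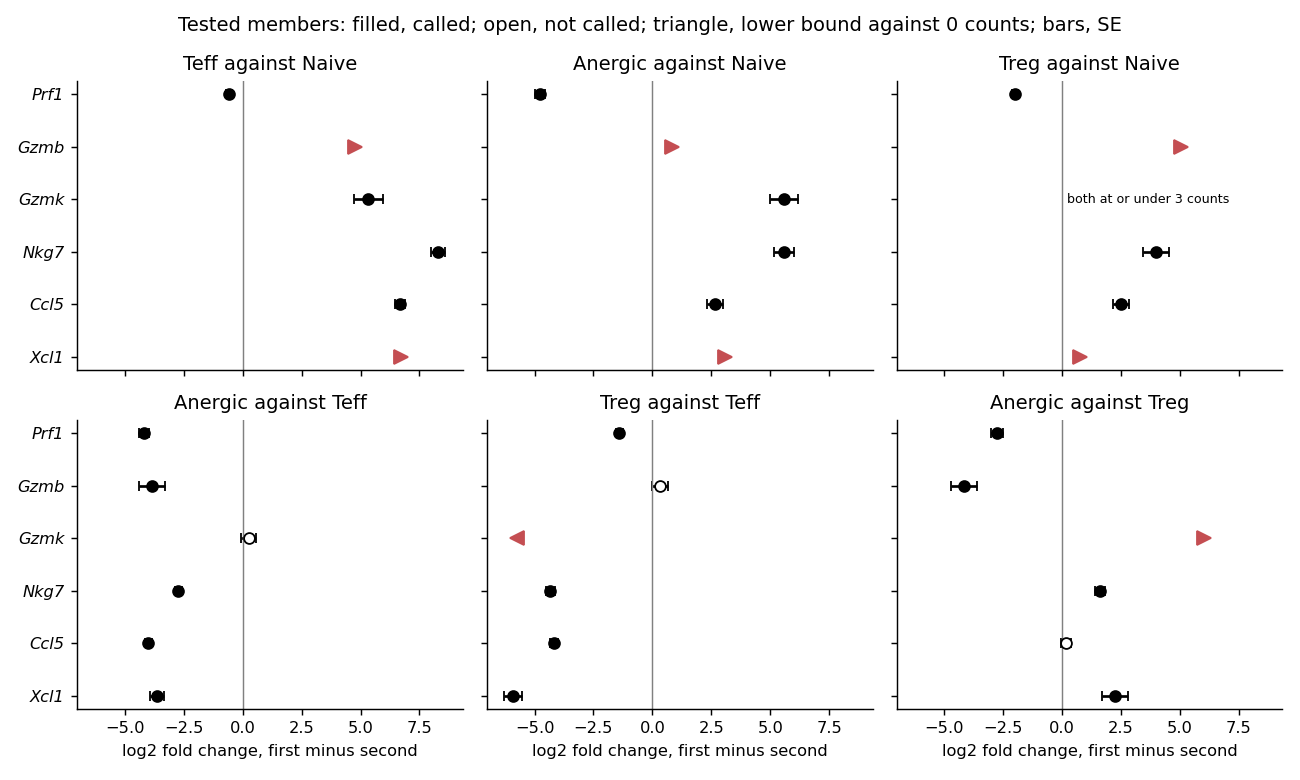
Log2 fold change of the first subset over the second for the 6 tested members, 1 panel for each of the 6 comparisons. Filled points were called and open points were not, bars are SE, and red triangles are lower bounds against a subset with 0 counts. Gzmk in Anergic against Teff, Gzmb in Treg against Teff and Ccl5 in Anergic against Treg sit near 0, and Prf1 lies below 0 in all 6 panels.

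The members also differed among themselves in pattern. Ccl5, Nkg7 and Xcl1 were closest, with root mean square differences of 0.708 to 0.849 in centred log2 CPM over the 12 libraries. Gzmk lay 1.53 to 1.99 from these 3 and Gzmb 1.71 to 2.15. Gzmb and Gzmk were 2.96 apart, and Prf1 was 2.47 from Gzmb and 2.88 to 3.5 from the others.

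Summed over their lists, markers of NK cells and of innate-like T cells were also highest in Teff. The 10 NK cell markers summed to 41.3 to 66.1 CPM in Teff, 7.06 to 8.81 in Anergic, 1.11 to 2.15 in Treg and 0 to 0.744 in Naive libraries. The Teff sum was mostly Klrb1c, which encodes NK1.1, at 29.8 to 52.0 CPM. Among other NK cell markers with more counts in Teff than elsewhere were Klrb1f with 192, Klre1 with 41, Klra3 with 22 and Klra9 with 10. The last 3 of these had 0 or 1 count in each other subset. Fcer1g and Tyrobp differed little, with 22 and 14 counts in Teff and 21 and 11 in Anergic libraries. Klra8 and Klra4 were at 0 counts in every subset, and Ncr1 had 1 count in Teff and 1 in Naive. The 8 markers of NKT and other innate-like T cells summed to 195 to 261 CPM in Teff, 27.5 to 43.8 in Anergic, 4.45 to 5.64 in Treg and 8.14 to 8.20 in Naive libraries. Klrb1c counts in this sum as well as in that of the NK cell markers. Zbtb16, which encodes PLZF, the factor of innate-like T cells, stood at 85.0 to 123 CPM in Teff and 17.9 to 28.2 in Anergic cells. Trdc and Sox13 of this list did not peak in Teff. Trdc had 57 counts there, 122 in Anergic, 103 in Treg and 74 in Naive libraries. Sox13 had 2 counts in Teff and 10 in Anergic libraries. Of the 7 tested markers of this list, 6 were called lower in Anergic cells than in Teff and 1 higher. Of all tested genes, 12.7% were lower and 13.9% higher there. Klrk1, Klrc1 and Klrc2 passed the filter through Teff, where they are high, so this count describes the list and is no test of it. The part of NK cells and innate-like T cells in the levels of Ccl5, Nkg7 and Xcl1 was not tested.

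Genes of the machinery that makes and releases granules moved in both directions between Anergic cells and Teff. Of 14 tested genes of granule biogenesis and release, 9 were called higher and 1 lower in Teff than in Naive, where 19.2% of all tested genes were higher and 15.7% lower. Stx11, which encodes a fusion protein of the release step, was 16.6-fold higher (adjusted p = 2.06e-12) and Lamp1 1.18-fold lower (adjusted p = 0.0145). The list's median log2 fold change there was 0.44, beside 0.0055 over all tested genes. Stx11 passed the filter through subsets other than Naive, so counts and medians describe this list and are no test of it. In Anergic against Teff, 7 rose and 3 fell, with a median of 0.17, where 13.9% of all tested genes rose and 12.7% fell. Cst7, which encodes cystatin F, an inhibitor of the cathepsins that activate granzymes, was at 2.63 ± 0.649 CPM in Naive, 13.9 ± 1.5 in Teff, 50.2 ± 9.68 in Anergic cells and 28.8 ± 0.827 in Treg (SD, n = 3). It was 3.60-fold higher in Anergic cells than in Teff (adjusted p = 7.44e-11), and Stx11 2.02-fold (adjusted p = 2.67e-06). Ctsw, which encodes cathepsin W, a protease of cytotoxic lymphocytes, was 4.70-fold lower (adjusted p = 1.67e-13), and Lyst, the lysosomal trafficking regulator gene, 3.83-fold lower (adjusted p = 8.23e-15).

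Of the 3 tested inhibitors of granzymes, 2 were called higher in Teff than in Naive, as 19.2% of all tested genes were. Serpinb6b was 4.17-fold (adjusted p = 2.59e-10) and Serpinb9, whose product blocks granzyme B, 1.94-fold higher (adjusted p = 7.03e-06). In Anergic against Teff, Serpinb6b was 1.94-fold lower (adjusted p = 1.07e-05), Serpinb6a 1.503-fold higher (adjusted p = 0.000406), and Serpinb9 did not pass the test (adjusted p = 0.0986).

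Of 5 death ligand and effector cytokine genes, 4 were called higher in Teff than in Naive and none lower, where 19.2% of all tested genes were higher and 15.7% lower. One of the 4, Ifng, had 0 counts in Naive libraries and passed the filter through other subsets. The count therefore describes the list and is no test of it. Ifng, which encodes interferon gamma, stood at 27.4, 24.04 and 23.8 CPM in Teff, 23.8, 14.2 and 10.5 in Anergic, 0.910, 0.507 and 1.29 in Treg and 0 in Naive libraries. The highest Anergic library lay just below the lowest Teff library, and Anergic cells were 1.54-fold lower (log2 fold change -0.63 ± 0.202 SE, adjusted p = 0.0241). Fasl, which encodes the ligand of the death receptor FAS, was 4.09-fold lower in Anergic cells than in Teff (adjusted p = 5.59e-11) and 5.75-fold higher in Teff than in Naive (adjusted p = 2.43e-12). Lta and Tnf, which encode lymphotoxin alpha and TNF, were 1.71-fold (adjusted p = 0.000544) and 1.32-fold (adjusted p = 0.0148) higher in Anergic cells than in Teff.

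Xcr1, which encodes the receptor of XCL1, was detected mainly in Anergic cells, whereas Xcl1 was highest in Teff. Xcr1 had 9, 15 and 16 counts in Anergic libraries, 2, 1 and 0 in Teff and 0 in Naive and Treg libraries. It did not reach the filter, and without the filter edgeR called it higher in Anergic cells than in Teff (adjusted p = 0.000337), with a ratio of 13.3-fold (95% counting interval 4.25 to 67.4). XCR1 is best known from dendritic cells. Clec9a, a marker of the dendritic cells that carry XCR1, had 5 counts in Anergic, 1 in Teff and 0 in Naive and Treg libraries. The 5 dendritic cell markers summed to 2.00 to 3.17 CPM in Anergic and 1.82 to 3.42 in Treg, mostly from Zbtb46 with 50 and 59 counts. The part of dendritic cells in the Xcr1 counts was not tested. Ccr3 had 40 counts in Treg, 15 in Teff, 12 in Anergic and 2 in Naive, while Ccr1 and the scavenging receptor gene Ackr2 had 0 to 2 counts per subset.

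Of 14 transcription factor genes linked to cytotoxic genes, 11 were called higher and 3 lower in Teff than in Naive, where 34.9% of all tested genes were called, 19.2% higher and 15.7% lower. The median log2 fold change of the list was 2.25. In Anergic against Teff, where 26.6% of all tested genes were called, 4 rose and 7 fell, with a median of -0.24. In Treg against Teff, where 29.1% were called, 2 rose and 10 fell, with a median of -1.25. Tbx21, Zbtb32, Zeb2 and Zfp683 passed the filter through subsets other than Naive. The counts and medians therefore describe this list and are no test of it. Tbx21, which encodes the Th1 factor T-bet, stood at 118, 118 and 115 CPM in Teff, 38.7, 28.9 and 29.7 in Anergic, 4.14, 4.18 and 2.47 in Treg and 0.138, 1.61 and 0.152 in Naive libraries. It was 3.60-fold lower in Anergic cells than in Teff (log2 fold change -1.85 ± 0.127 SE, adjusted p = 4.42e-11) and 32.2-fold lower in Treg than in Teff (log2 fold change -5.01 ± 0.176 SE, adjusted p = 1.13e-16). Zfp683, which encodes HOBIT, a factor of tissue-resident lymphocytes, stood at 78.5, 59.5 and 60.8 CPM in Teff and at 3.41, 2.70 and 4.39 in Anergic libraries. It was 19.03-fold lower in Anergic cells than in Teff (log2 fold change -4.25 ± 0.2 SE, adjusted p = 4.04e-14). Zbtb32 and Zeb2 were the factors that rose most in Anergic cells over Teff, by 2.06-fold (adjusted p = 0.00184) and 1.84-fold (adjusted p = 0.00711). Klf13 and Tcf7, 2 of the 3 that were lower in Teff than in Naive, fell by 0.88 and 0.75 on the log2 scale. Eomes, the T-box factor named here after its values were seen, was at 15.9 ± 4.27 CPM in Anergic and 14.1 ± 1.71 in Teff against 3.92 ± 0.890 in Treg and 4.999 ± 0.313 in Naive cells (SD, n = 3), and Anergic against Teff did not pass (adjusted p = 0.494).

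**Figure D4:**
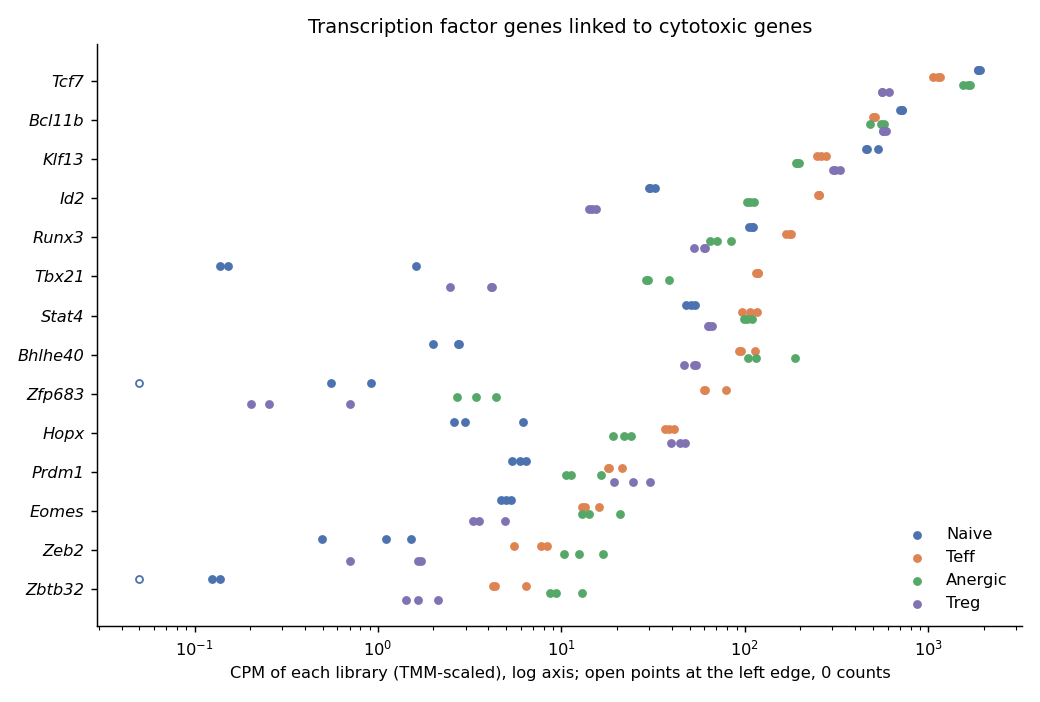
CPM of 14 transcription factor genes in each of the 12 libraries on a log axis, 1 row per gene and 1 colour per subset, with open points at the left edge for libraries with 0 counts. Tbx21 and Zfp683 lie far to the right in Teff, with Anergic libraries between Teff and Treg, and Eomes overlaps between Teff and Anergic libraries.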

How the data were processed

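RNA was measured in 12 libraries of sorted CD4 T cells. The deposited values are unnormalised counts of reads per gene, with a column for each library. The series design text names Trimmomatic, HISAT2, SAMtools, featureCounts and edgeR as what the authors used. The genome was GRCm38 (mm10) per the submitters' processing notes. Sources used here give neither the annotation nor the strand setting.

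Counts were tested with the quasi-likelihood F test of edgeR 4.0.16 under R 4.3.3, using TMM scaling, filterByExpr and subset means over all 12 libraries, in 6 two-sided comparisons, adjusted over the 13393 tested genes. Standard errors were taken as the log2 fold change over the root of F. A subset with 0 counts was set at a floor of 3 counts over its 3 libraries, and with 1 to 3 counts the ratio has an exact 95% interval. Both cover counting error only. The fit was tested on simulated data. Patterns were compared on log2 CPM with a prior count of 2.

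The members and gene lists were chosen with earlier results of these data known, so counts and medians over a list describe it and are no test of it. The named genes are the members, from each list up to 2 called genes at either end of Teff against Naive and of Anergic against Teff, the receptors of the member chemokines (1 of which is not reported here) and the 2 genes nearest each tested member in pattern, without names of receptor segments, pseudogenes, ribosomal genes, RIKEN clones and predicted genes. Alternatives were DESeq2 1.42.0, limma 3.58.1 voom, DESeq2 size factors, total counts alone, a fit of the compared subsets alone, no low-count filter, a minimum of 5 CPM in 3 libraries, a replicate block, removal of entries above 0.5% of a library, and each library left out in turn. No library was treated as a duplicate, since every within-subset pair gave a chi-square of 2.20 to 21.5 per degree of freedom.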

Additional observations from a re-analysis of the deposited data

How the results depend on the processing

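Across 528 repeats of the 36 member results under the alternatives, 514 kept their direction and their side of the threshold, 13 lost the call and 1 changed direction. The lost calls were those of Gzmb in Anergic against Naive and of Xcl1 in Treg against Naive, which rest on 6 counts each. Gzmb also lost its call with limma voom (adjusted p = 0.120). Ccl5 in Anergic against Treg, not called in any alternative, ranged on the log2 scale from -0.061 without Anergic replicate 3 to 0.36 without Anergic replicate 2. Gzmk in Treg against Naive had no value without Naive replicate 3, since no counts remained. At a filter of 5 CPM in 3 libraries Gzmb was not tested. The number of members called ranged from 4 to 6 in Anergic against Naive and differed by at most 1 elsewhere. The number of genes called stayed within 1.5 times in each comparison, for example 3083 to 3987 in Anergic against Teff. With the replicate block, members called were 5 in Anergic against Teff, 6 in Teff against Naive and 5 in Treg against Teff, as without it, and it changed no member's call. The numbers were not taken to pair libraries, since a shared number is not stated to mark a shared animal or day. The data hold hints of pairing. Deviations of 18 same-numbered pairs correlated at -0.0485 to 0.184, 4 of them over 0.1, and those of other pairs at -0.199 to 0.171. Of 12 libraries, 10 correlated best with their own number. The block raised the genes called in each comparison, for example from 3566 to 3987 in Anergic against Teff and from 4150 to 4610 in Anergic against Treg. Scaling by total counts alone shifted the median of all tested genes to -0.13 in Anergic against Treg and cut the share of calls that were higher from 50.5 to 30.4%, and in Anergic against Teff from 52.3 to 34.9%. It raised that share from 57.7 to 72.2% in Treg against Naive. Calls of the 6 tested members held there. Depth limits Gzma, Ccl3 and Ccl4.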

Other observations

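Other chemokine genes were mostly silent, and 2 of 31 listed reached the filter. Cxcl10, an interferon-induced chemokine that attracts CXCR3-bearing cells, was higher in Anergic cells than in the other subsets, in contrast to Ccl5. It stood at 11.7 ± 1.76 CPM in Anergic, 3.72 ± 0.484 in Teff, 2.49 ± 1.17 in Treg and 0.602 ± 0.139 in Naive cells (SD, n = 3). It was 3.13-fold above Teff (edgeR adjusted p = 1.93e-05), 4.60-fold above Treg (adjusted p = 4.86e-07) and 19.2-fold above Naive (adjusted p = 4.62e-10). Ccl25 was at 12.7 to 16.2 CPM on average in the 4 subsets and did not differ between Anergic and Teff beyond the spread (adjusted p = 0.869).

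Cxcl2, a neutrophil-attracting chemokine gene named here after its values were seen, had 8, 8 and 12 counts in the Treg libraries, 28 in all, against 2 in Teff, 1 in Anergic and 0 in Naive cells. Without the filter on low counts, edgeR called it higher in Treg than in Teff (adjusted p = 0.00575) and than in Anergic cells (adjusted p = 0.00136). The ratio to Teff was 13.1-fold (95% counting interval 3.29 to 113). The myeloid markers, from cells that also make Cxcl2, summed to 4.35 to 8.49 CPM in Treg and 11.8 to 13.8 in Teff, and their part in the Cxcl2 counts was not tested.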
